A study of Mus musculus with 12 samples.

Results

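Tight junctions are belts of contact that seal the space between neighbouring epithelial cells, and in the epidermis they form in the granular layer as keratinocytes differentiate. Claudins make the strands and set which ions and solutes pass, and the MARVEL proteins occludin and tricellulin sit in the same strands, tricellulin mainly at the corners where several cells meet. Junctional adhesion molecules lie beside the strands, and plaque proteins such as ZO-1 and cingulin tie them to the actin cytoskeleton. The 9 genes followed here were of these kinds: the claudins *Cldn1*, *Cldn4*, *Cldn7* and *Cldn8*, *Ocln* (occludin), *Marveld2* (tricellulin), *F11r* (junctional adhesion molecule A), *Tjp1* (ZO-1) and *Cgn* (cingulin). They were chosen by gene name, as 9 of the 21947 loci of a table of RNA-Seq counts, and each lies in a locus that bears its name alone.

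The libraries came from primary keratinocytes of newborn BALB/c mice. The cells were grown at 0.05 mM calcium and moved to 0.12 mM, which makes them differentiate. siSbsn cultures received 75 pmol of a pool of small interfering RNAs against *Sbsn*, the gene of the secreted epidermal protein suprabasin, siControl cultures received as much of a non-targeting pool, and RNA was taken 48 hours after transfection. Each of the 3 treatments (none, siControl, siSbsn) had 2 libraries in batch 1, and siControl and siSbsn had 3 each in batch 2. Nothing in the labels says what set the batches apart or whether libraries of a group were separate cultures, so p-values measure the spread between these libraries, which may be technical.

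Total counts ranged from 27934836 to 49553923 per library. Levels are given as CPM, the count per 1000000 counts of the normalized library size, and differences as log2-fold changes of edgeR's quasi-likelihood test with its q-value, adjusted over all loci tested. A gene was called where the absolute log2-fold change was over 0.5 and q was under 0.05. The siRNA target *Sbsn* averaged 387 ± 64.9 CPM in the 3 siControl libraries of batch 2 (SD) and 123 ± 1.95 CPM in the 3 siSbsn libraries. In batch 1 siControl had 1189 and 1356 CPM of it, the libraries without siRNA 1697 and 1231 CPM, and siSbsn had 1965 CPM in replicate 1 and 696 CPM in replicate 2. The library labelled siSbsn batch 1 replicate 1 thus goes against its label. In each library, log2 CPM minus each locus' mean over the 12 libraries was also fitted on transcript length. The slope per doubling of length was -0.107 to 0.127 in 11 libraries. In siControl batch 1 replicate 1, which stood apart in this way, it was -0.449. Batch 2 alone holds neither library.

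Of the 9 genes 8 were expressed well enough to be tested. Per kilobase of the longest coding transcript *Cldn4* was highest in all 12 libraries, at 900 ± 226 CPM per kilobase (SD, n = 12), then *Cldn1* at 361 ± 73.9 and *F11r* at 121 ± 6.41. *Tjp1* (61.5 ± 17.1), *Cgn* (24.1 ± 7.85), *Ocln* (19.7 ± 4.09) and *Marveld2* (13.1 ± 1.63) followed in CPM per kilobase. Between *Tjp1* and *Cgn*, *Cgn* and *Ocln*, and *Ocln* and *Marveld2* the ranges over libraries overlapped. *Cldn7* lay below these at 5.34 ± 2.53 CPM per kilobase, and *Cldn8* was nearly silent at 0.064 ± 0.025 CPM per kilobase.

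**Figure D1:**
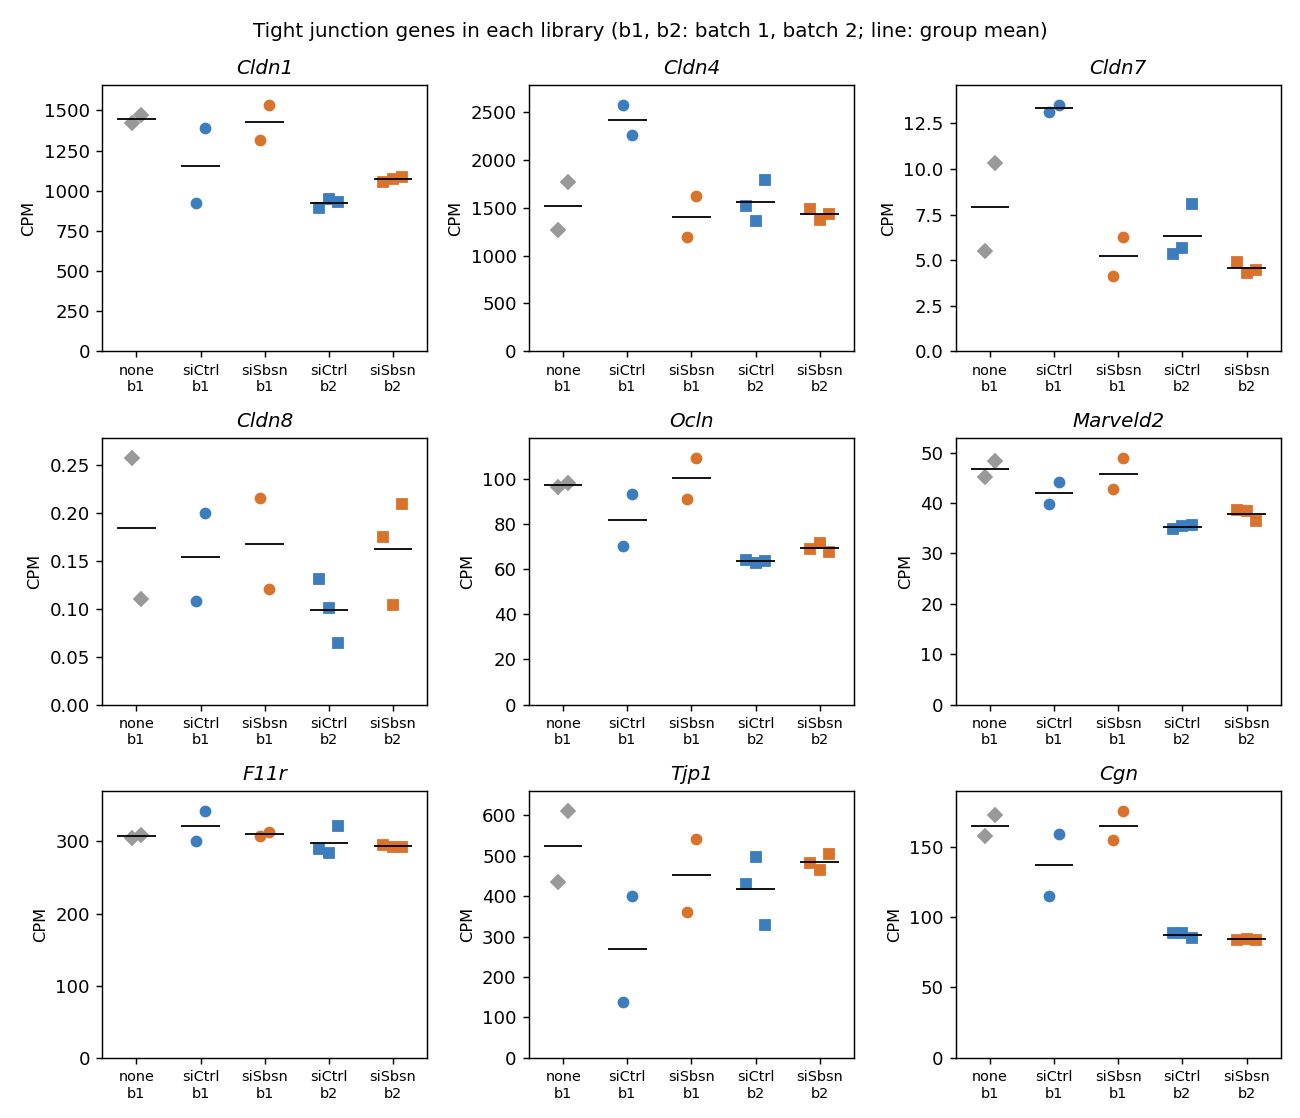
CPM of each of the 9 genes (vertical axes, starting at 0, each with its own scale) in the 12 libraries, grouped by treatment and batch; each point is a library and each line a group mean. *Cldn7* in siSbsn lies below siControl of the same batch throughout, and all 6 batch 2 libraries of *Cgn* lie between 83.9 and 88.7 CPM, below all 6 of batch 1.

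*Cldn7* showed the largest difference between siSbsn and siControl. Claudin-7 is a barrier claudin that is also found along the sides of epithelial cells outside the strands. The gene spans chr11:69964779-69967886 of mm10 on the plus strand and has 4 exons in its longest coding transcript. Its transcript was at 13.1 and 13.5 CPM in siControl of batch 1, at 4.16 and 6.24 CPM in siSbsn of batch 1, and at 5.51 and 10.3 CPM without siRNA. In batch 2 it had 5.36, 5.65 and 8.05 CPM in siControl against 4.90, 4.32 and 4.48 CPM in siSbsn. Every siSbsn library lay below every siControl library of its own batch, which held in both batches for no other member; among all 13562 loci with enough counts, 8.94% were separated in the same direction in both batches. The siSbsn mean was 39.1% of the siControl mean in batch 1 and 71.9% in batch 2. The lowest of the 12 libraries, at 4.16 CPM, was the one labelled siSbsn batch 1 replicate 1. Its *Sbsn* level of 1965 CPM goes against that label.

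The log2-fold change of *Cldn7* over both batches was -0.82 (standard error, SE, 0.20, unadjusted p = 0.00185, edgeR q = 0.254), so *Cldn7* was not called. DESeq2's Wald test on the same libraries gave -0.82 with q = 0.0167, past the threshold. Within batch 1 the change was -1.38 (SE 0.33, edgeR q = 0.423) and within batch 2 it was -0.45 (SE 0.15, edgeR q = 0.458). Without siControl batch 2 replicate 3, the library with the highest level of that batch, the batch 2 value was -0.27, and with the trend of each library on transcript length removed the value over both batches was -0.58 (edgeR q = 0.226). With 1 library left out in turn, the value over both batches ran from -0.93 to -0.65. The counts behind *Cldn7* were 125 to 473 per library.

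*Cldn4*, a barrier claudin and the most abundant one here, is a gene of 1 exon at chr5:134945124-134946934 (minus strand). It had 2572 and 2254 CPM in siControl of batch 1, 1194 and 1616 CPM in siSbsn of batch 1, and 1271 and 1770 CPM without siRNA. The siSbsn libraries of batch 1 overlapped those without siRNA, and both siControl libraries lay above all 4. In batch 2 *Cldn4* had 1516, 1357 and 1786 CPM in siControl against 1489, 1367 and 1428 CPM in siSbsn, and the groups overlapped. The log2-fold change over both batches was -0.38 (SE 0.15, unadjusted p = 0.0274, edgeR q = 0.255), made up of -0.81 (SE 0.29) in batch 1 and -0.11 (SE 0.092) in batch 2. When the library labelled siSbsn batch 1 replicate 1 was left out, the value over both batches was -0.24, at an unadjusted p of 0.0653, and with the length trend removed it was -0.20. In batch 2 the value was -0.016 without siControl replicate 3 and -0.19 without siControl replicate 2.

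For *Cldn4* and *Cldn7* the difference between siSbsn and siControl itself differed between the batches at an unadjusted p under 0.05 and at no q under 0.05. The siSbsn effect in batch 2 minus that in batch 1 was 0.68 for *Cldn4* (SE 0.22, unadjusted p = 0.012, edgeR q = 0.276) and 0.90 for *Cldn7* (SE 0.30, unadjusted p = 0.0137, edgeR q = 0.282). These 2 of the 8 genes stand beside 15.1% of all loci at this p, and edgeR called 0.0% of loci for this interaction. When the library labelled siSbsn batch 1 replicate 1 was left out the differences were 0.45 and 0.61, and neither passed an unadjusted p of 0.05; both were also above it with the length trend removed. Without siControl batch 1 replicate 2 edgeR called 3 of the 8 genes for the interaction, *Cldn4* (0.73, edgeR q = 0.0307) among them, where 33.9% of all loci were called in that fit, and 6 of the 8 were at an unadjusted p under 0.05, against 48.4% of all loci.

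*Cldn1* was higher in siSbsn in batch 2. Claudin-1 is the claudin without which mouse skin loses its barrier to water, and its gene spans chr16:26356646-26371839 on the minus strand with 4 exons. In batch 2 it had 894, 950 and 931 CPM in siControl against 1054, 1071 and 1087 CPM in siSbsn, so that all 3 siSbsn libraries lay above all 3 siControl libraries, at 115.7% of their mean. In batch 1 it had 924 and 1390 CPM in siControl, 1319 and 1536 CPM in siSbsn and 1424 and 1472 CPM without siRNA, and siControl overlapped siSbsn. The log2-fold change was 0.25 over both batches (SE 0.11, unadjusted p = 0.0371, edgeR q = 0.257), 0.28 in batch 1 (SE 0.30) and 0.22 in batch 2 (SE 0.058, unadjusted p = 0.00427, edgeR q = 0.384). It was 0.26 over both batches with the length trend removed and 0.16 without siControl batch 1 replicate 1. With 1 library left out the batch 1 value ran from 0.029, without siControl replicate 1, to 0.57, without siControl replicate 2.

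*Cldn4* and *Cldn1*, the highest of the 4 claudins, were also set against each other within each library. The level of *Cldn4* per kilobase divided by that of *Cldn1* was 4.98 and 2.90 in siControl of batch 1 and 1.62 and 1.88 in siSbsn of batch 1. Without siRNA the ratio was 1.60 and 2.15, and in batch 2 it was 3.03, 2.55 and 3.43 in siControl against 2.53, 2.28 and 2.35 in siSbsn. The siSbsn libraries lay below the siControl libraries in each batch, by a narrow margin in batch 2, and *Cldn4* exceeded *Cldn1* per kilobase in all 12 libraries. The highest ratio, 4.98, is that of siControl batch 1 replicate 1, the library with the slope of -0.449 on transcript length. In batch 2 the highest, 3.43, is that of siControl replicate 3, which has the lowest slope of that batch, -0.051. The transcripts are 1816 bases (*Cldn4*) and 3247 bases (*Cldn1*) long, and the ratio was not corrected for these trends. It was looked at with the levels known and was not tested.

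*Cldn8*, a claudin of tight epithelia such as the kidney's collecting duct and a gene of 1 exon at chr16:88560826-88563183 (minus strand), did not pass the filter on low counts and was not tested. It had 2 to 11 counts per library, 68 in all, and 0.064 to 0.258 CPM. Differences between groups were not judged at these counts.

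The stretches just upstream of the 3 tested claudin genes are shown because these 3 genes were at an unadjusted p under 0.05 over both batches, though edgeR called none of them. They are the 250 bases before the annotated start, 5′ to 3′ on the gene's strand, from RefSeq on GRCm38.p6, at chr16:26371840-26372089 (minus strand) for *Cldn1*, chr5:134946935-134947184 (minus strand) for *Cldn4* and chr11:69964529-69964778 (plus strand) for *Cldn7*. Capitals mark matches on either strand to TGANTCA (AP-1), CAGGTG (the E-box of Snail family repressors), AACNNGTT (the core of Grainyhead-like sites), GGGCGG (GC box) or TATAAA (the TATA box).
Cldn1: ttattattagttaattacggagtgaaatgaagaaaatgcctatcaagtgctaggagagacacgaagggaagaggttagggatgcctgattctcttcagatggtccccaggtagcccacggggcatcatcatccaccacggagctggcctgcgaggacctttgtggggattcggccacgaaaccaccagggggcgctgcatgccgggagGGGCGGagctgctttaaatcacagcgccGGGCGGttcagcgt
Cldn4: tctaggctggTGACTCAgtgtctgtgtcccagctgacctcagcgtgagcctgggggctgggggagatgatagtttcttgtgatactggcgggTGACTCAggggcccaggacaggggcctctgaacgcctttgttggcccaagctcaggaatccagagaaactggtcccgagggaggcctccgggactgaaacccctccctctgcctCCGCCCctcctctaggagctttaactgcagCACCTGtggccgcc
Cldn7: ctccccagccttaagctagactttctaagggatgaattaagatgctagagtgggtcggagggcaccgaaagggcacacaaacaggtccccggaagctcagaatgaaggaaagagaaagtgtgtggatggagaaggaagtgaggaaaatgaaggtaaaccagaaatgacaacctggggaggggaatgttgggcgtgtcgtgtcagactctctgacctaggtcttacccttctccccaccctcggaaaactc
The stretch before *Cldn4* holds 2 matches to TGANTCA, 1 to CAGGTG and 1 to GGGCGG, the stretch before *Cldn1* holds 2 to GGGCGG, and the stretch before *Cldn7* holds none of the 5 motifs. Promoters were found for 8 of the 9 genes, all but *Cldn8*. TGANTCA was in 2 of the 8 (*Cldn4* and *F11r*) and in 6.75% of 32817 promoters, and CAGGTG was in the same 2 and in 17.2% of promoters. GGGCGG was in 7 of the 8, all but *Cldn7*, and in 32.7% of promoters, while AACNNGTT was in that of *Cgn* alone (3.64% of promoters) and TATAAA in that of *Marveld2* alone (12.4%). Nothing in these libraries measured binding there.

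Among the MARVEL proteins, *Ocln* and *Marveld2* had smaller fitted differences than *Cldn1*, also above 0. *Ocln*, which encodes occludin and spans chr13:100497367-100552623 of mm10 on the minus strand, had 63.9, 62.7 and 63.6 CPM in siControl of batch 2 against 69.0, 71.6 and 67.8 CPM in siSbsn of batch 2. The groups did not overlap, and the log2-fold change was 0.14 (SE 0.055, unadjusted p = 0.0348, edgeR q = 0.483). In batch 1 *Ocln* had 70.2 and 93.4 CPM in siControl, 91.1 and 109 CPM in siSbsn and 96.3 and 98.2 CPM without siRNA, and siControl overlapped siSbsn. Over both batches its change was 0.20 (SE 0.092, edgeR q = 0.260), and 0.13 without siControl batch 1 replicate 1.

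*Marveld2*, whose protein tricellulin closes the seal at tricellular corners, lies 43333 bases from *Ocln* on the same strand, at chr13:100595957-100616971. It had 34.8, 35.4 and 35.8 CPM in siControl of batch 2 against 38.6, 38.4 and 36.4 CPM in siSbsn, again without overlap. In batch 1 it was at 39.8 and 44.3 CPM in siControl, 42.7 and 49.0 CPM in siSbsn and 45.2 and 48.5 CPM without siRNA, and the siControl and siSbsn ranges overlapped. The log2-fold change was 0.10 in batch 2 (SE 0.058) and 0.12 over both batches (SE 0.069, edgeR q = 0.318).

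*F11r* (chr1:171437561-171464593, plus strand) was the steadiest of the 8 genes. Junctional adhesion molecule A helps to place the polarity complex at young junctions, and the level of its transcript ran from 284 to 342 CPM over the 12 libraries, a spread of 0.27 on the log2 scale between the lowest and the highest library. The means were 298 ± 20.5 CPM in siControl (SD, n = 3) and 293 ± 1.68 CPM in siSbsn (SD, n = 3) of batch 2. In batch 1 *F11r* had 301 and 342 CPM in siControl against 308 and 313 CPM in siSbsn. The log2-fold change over both batches was -0.028 (SE 0.068, edgeR q = 0.799), and its sign turned with the length trend removed.

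*Tjp1* had the widest spread, 2.14 on the log2 scale, and 1 library made most of it. ZO-1 is the plaque protein that binds claudins and occludin to actin, and its transcript is the longest of the 9 at 7049 bases in 28 exons (chr7:65296165-65371244, minus strand). In siControl of batch 1 it was at 138 CPM in replicate 1 and at 401 CPM in replicate 2, while siSbsn of batch 1 had 362 and 542 CPM and the libraries without siRNA had 436 and 611 CPM. In batch 2 *Tjp1* had 431, 497 and 329 CPM in siControl against 482, 466 and 505 CPM in siSbsn, and the groups overlapped. The library at 138 CPM is the one with the slope of -0.449 on transcript length. In batch 2 the lowest library, siControl replicate 3, also had a lower length slope (-0.051) than the other 5 (0.078 to 0.127). Whether the length trends lowered *Tjp1* in these libraries was not tested.

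The log2-fold change of *Tjp1* was 0.43 over both batches (SE 0.26, edgeR q = 0.320), 0.74 in batch 1 (SE 0.47) and 0.21 in batch 2 (SE 0.13). Without siControl batch 1 replicate 1 the value over both batches was 0.20, and with the length trend removed it was also 0.20. Without siControl batch 1 replicate 2, which leaves that library as the only control of batch 1, the batch 1 value was 1.65 (edgeR q = 0.00222).

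**Figure D2:**
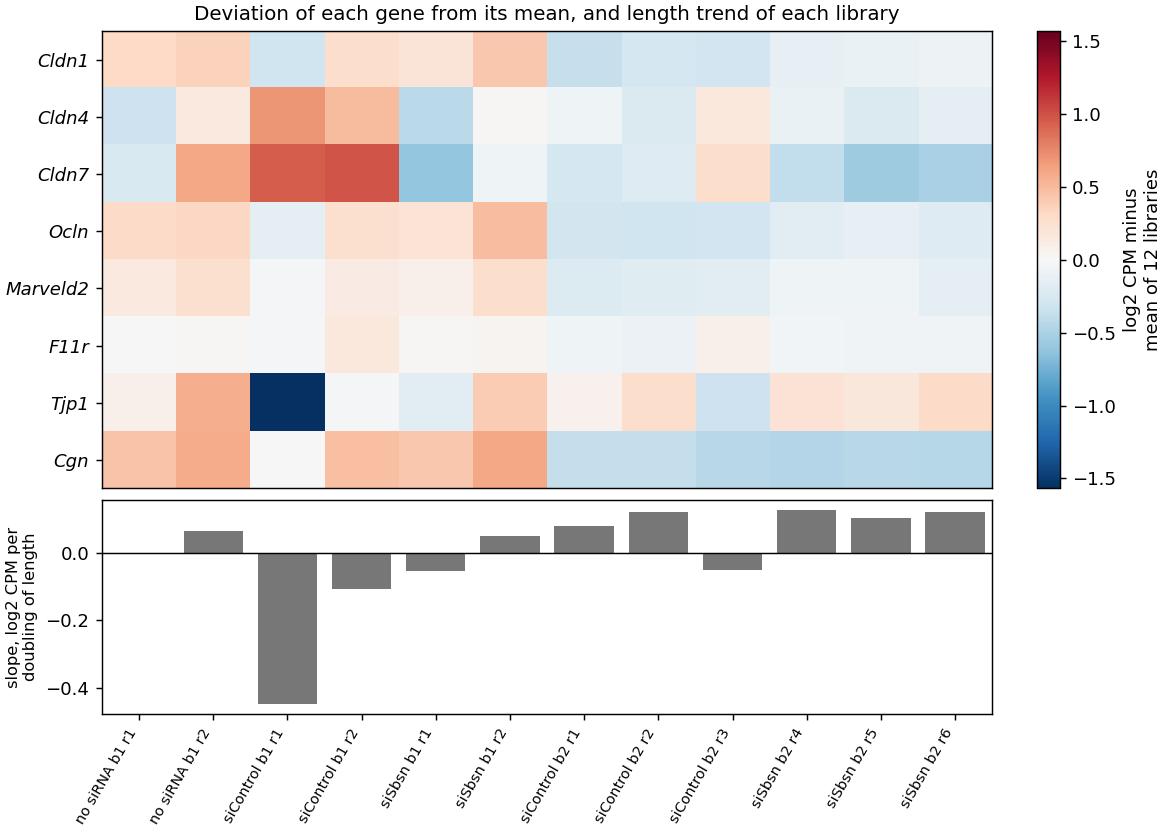
Upper panel: log2 CPM of the 8 tested genes (rows) in each library (columns) minus the gene's mean over the 12 libraries, red for above and blue for below. Lower panel: the slope on transcript length, per doubling, of each library's log2 CPM minus each locus' mean over the 12 libraries (b, batch, and r, replicate). The deepest slope, -0.449, and the lowest *Tjp1* are both in siControl b1 r1.

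*Cgn* (chr3:94760070-94786515, minus strand), whose protein cingulin links ZO proteins to myosin and microtubules, had the smallest relative spread of the 8 genes within batch 2, with an SD of 2.6% of the mean over 6 libraries. In batch 2 it had 88.5, 88.7 and 84.9 CPM in siControl against 83.9, 84.7 and 84.1 CPM in siSbsn, so that siSbsn lay just below siControl, at 96.4% of its mean. In batch 1 it was at 115 and 159 CPM in siControl, 155 and 175 CPM in siSbsn, and 157 and 173 CPM without siRNA. The log2-fold change was -0.048 in batch 2 (SE 0.056, edgeR q = 0.733) and 0.081 over both batches (SE 0.10, edgeR q = 0.608), neither beyond the spread between libraries, and the latter turned to -0.017 without siControl batch 1 replicate 1.

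Counted over the genes, edgeR called 0 of the 8 between siSbsn and siControl over both batches, beside 0.0% of the 12857 loci tested. With limma-voom 0 were called too (0.0% of loci), while DESeq2 called 1 (*Cldn7*) beside 0.731% of loci. At an unadjusted p under 0.05 there were 3 of 8, *Cldn1* higher and *Cldn4* and *Cldn7* lower, against 19.2% of all loci. That count fell to 1 without siSbsn batch 1 replicate 2 (9.67% of all loci) or without siControl batch 2 replicate 3 (10.3%). In batch 1 alone it was 2 of 8, *Cldn4* and *Cldn7*, both lower (11.7% of all loci), and 0 when the library labelled siSbsn batch 1 replicate 1 was left out and 4 without siControl batch 1 replicate 2, where 38.6% of all loci were at that p and 3 of the 8 were called beside 25.5% of all loci. In batch 2 alone it was 3 of 8, *Cldn1* and *Ocln* higher and *Cldn7* lower (10.2% of all loci). With 1 library of batch 2 left out it was 2 to 5, where 4.75% to 22.8% of all loci were at that p.

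In batch 1 edgeR called 0 of the 8 genes (0.0% of all loci) and in batch 2 it called 0 of the 8 (0.00774% of all loci, a single locus, *Sbsn*). The siSbsn and siControl libraries did not overlap for 2 of 8 genes in batch 1, where 50.7% of all loci did not overlap, and for 5 of 8 in batch 2, where 18.1% did not. Of these 5 in batch 2, *Cldn1*, *Ocln* and *Marveld2* were higher in siSbsn and *Cldn7* and *Cgn* lower. The median log2-fold change over both batches was 0.098 for the 8 genes and 0.0055 for all loci.

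**Figure D3:**
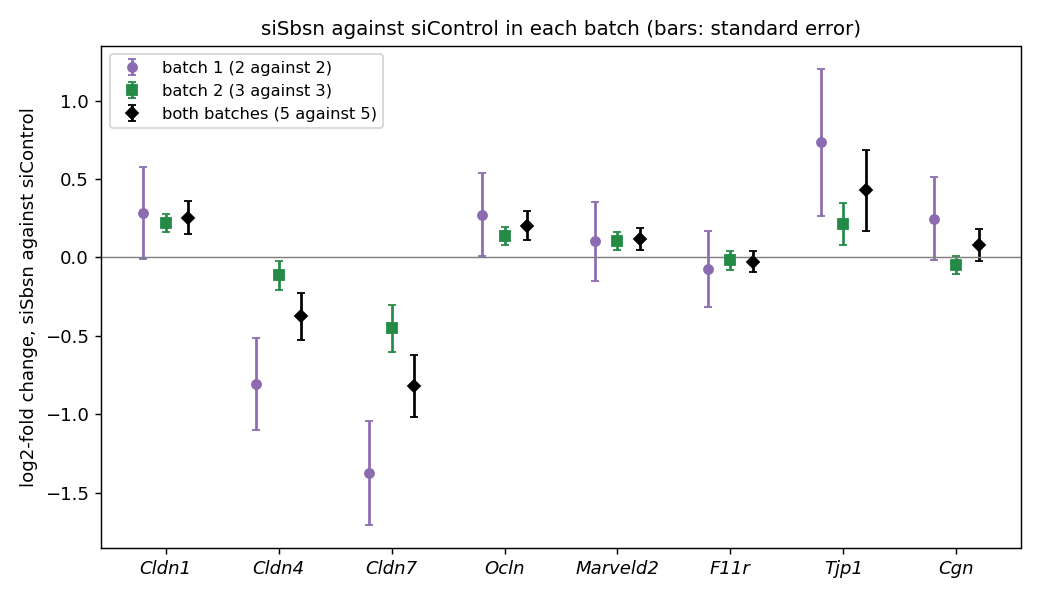
Log2-fold change of siSbsn against siControl (vertical axis) for the 8 tested genes, in batch 1 (circles), batch 2 (squares) and both batches (diamonds), with bars of 1 standard error. *Cldn7* is below 0 in all 3 fits, at -1.38, -0.45 and -0.82, and the batch 1 bars are the widest for every gene.

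The siRNA-free libraries of batch 1 show where siControl itself stood. Against them, siControl had 1 of 8 genes at an unadjusted p under 0.05 (16.1% of all loci), *Cldn4*, with a log2-fold change of 0.70 (SE 0.26, edgeR q = 0.308), and edgeR called 0 of the 8 (0.0% of loci). With the length trend removed the value of *Cldn4* was 0.33, at an unadjusted p of 0.237. With 1 library left out in turn the value of *Cldn4* ran from 0.48 to 0.96, and each such fit has a group of 1 library. The siSbsn libraries had 0 of 8 at an unadjusted p under 0.05 (0.175% of all loci) and 0 called (0.0%). Their changes lay between -0.60 and 0.042 on the log2 scale. For *Cldn4* the siControl mean was 158.7% of the mean without siRNA and the siSbsn mean 92.4% of it. For *Cldn7* these were 168.5% and 65.8%. The 2 comparisons share the libraries without siRNA, and each group has 2 libraries.

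By calls the batches differed more than siSbsn and siControl did. For *Cldn7*, *Cldn4* and *Tjp1*, though, the fitted change between siSbsn and siControl over both batches was the larger in size. Of the 8 genes 7 had lower fitted levels in batch 2 than in batch 1, while 48.4% of all loci were higher there. Of the 8 genes 2 were called, *Cgn* and *Cldn7*, where 37.7% of all loci were called. *Cgn* averaged 155.8 CPM in the 6 libraries of batch 1 (115 to 175) and 85.8 CPM in the 6 of batch 2 (83.9 to 88.7), which was 55.1% of the batch 1 mean. The batches did not overlap, and the log2-fold change at equal treatment was -0.82 (SE 0.10, edgeR q = 0.000152). Among the siControl libraries alone it was -0.65 with q = 0.0543.

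*Cldn7* was lower in batch 2 by -0.66 on the log2 scale (SE 0.20, edgeR q = 0.0175). This call was lost with the length trend removed (-0.36, q = 0.119) and without siControl batch 1 replicate 2 (-0.54, q = 0.0534). *Ocln* (-0.46, edgeR q = 0.00244), *Cldn1* (-0.38, q = 0.0139) and *Marveld2* (-0.27, q = 0.0085) had q under 0.05 but changed by less than 0.5, except that *Ocln* reached -0.54 without siControl batch 1 replicate 1 and was then called. *Cldn4* was at -0.32 (q = 0.0891), *F11r* at -0.10 (q = 0.229) and *Tjp1* at 0.36 (q = 0.272).

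At an unadjusted p under 0.05 the batches differed for 5 of 8 genes, against 60.6% of all loci, and the 6 libraries of each batch did not overlap for 2 of 8, *Cgn* and *Marveld2*, against 30.3% of all loci. These shares of the 8 genes are near or below those of all loci for calls, unadjusted p and overlap alike. Other measures moved with the batches. *Sbsn* in batch 2 was at 18.8% of its batch 1 mean over all libraries, which include the siSbsn ones. In siControl alone it averaged 387 CPM in batch 2 and 1272 CPM in batch 1. The 7 keratinocyte markers counted alone (*Krt5*, *Krt14*, *Sbsn* and others) summed to 16500 to 22100 CPM in batch 2 and to 22400 to 48200 CPM in batch 1. The 4 melanocyte markers (*Dct*, *Tyrp1*, *Mlana* and *Tyr*) summed to 631 to 704 CPM in batch 2 and to 369 to 529 CPM in batch 1, and the 4 simple epithelial keratins to 33.6 to 56.6 CPM against 104 to 236 CPM. Endothelial markers summed to 3.21 CPM at most and immune markers to 9.14 CPM, with the Langerhans cell marker *Cd207* at 0 in all 12 libraries, and fibroblast markers to 350 to 1150 CPM. The part of these differences in the levels of the junction genes was not tested, and in bulk RNA fewer cells of a type and less RNA per cell cannot be told apart.

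The rest of the tight junction was read from 50 further genes, of which 46 were in the table, 41 as loci of their own and 27 with enough counts to test. Of 16 other claudins counted alone, 13 had at most 10 counts in every library, and only *Cldn12*, *Cldn15* and *Cldn23* were tested. *Cldn3* and *Cldn22* share loci with other genes and were left out. Per kilobase the levels of *Amotl2*, an angiomotin-like scaffold, at 214 CPM and of *Prkci*, the atypical protein kinase C of the polarity complex, at 122 CPM were the highest of the 27.

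Between siSbsn and siControl over both batches, 0 of these 27 were called by edgeR, and 3 were higher and 3 lower at an unadjusted p under 0.05, against 19.2% of all loci in either direction. Those with the smallest p were *Magi1*, a plaque scaffold (log2-fold change 0.36, SE 0.13, edgeR q = 0.254), *Cxadr*, an adhesion receptor of the junction (0.28, SE 0.11, q = 0.255) and *Crb3*, an apical polarity protein (-0.42, SE 0.17, q = 0.255). The median was 0.161, with 21 of 27 above 0, while 50.7% of all loci were above 0. This median was not corrected for the length trends of the libraries. In batch 1 the median of the 27 against no siRNA was -0.257 for siControl and -0.051 for siSbsn. In batch 2 alone *Marveld3* was at -0.15 (edgeR q = 0.498) and *Pard3* at 0.14 (q = 0.503), neither at that p.

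Between the batches 10 of the 27 were called, where 37.7% of all loci were called. *Ildr1*, an angulin that brings tricellulin to tricellular corners, averaged 30.1 CPM in batch 1 and 5.63 CPM in batch 2, a log2-fold change of -2.43 (SE 0.078, edgeR q = 6.19e-08), and *Cldn23* averaged 45.3 and 7.25 CPM, a change of -2.69 (SE 0.14, q = 9.73e-07). The value of *Marveld2* itself was -0.27. *Crb3* (-0.85) and the cingulin paralogue *Cgnl1* (-0.63) were also lower in batch 2. Higher there were 6, *Cldn15* (1.76, from 0.457 to 1.54 CPM), *Mpdz* (1.00), *Pard3* (0.76), *Tjap1* (0.61), *Prkci* (0.61) and *Magi3* (0.55).

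Genes of other junctions were counted in the same way, against 19.2% of all loci at an unadjusted p under 0.05 in either direction, and edgeR called 0 of them between siSbsn and siControl over both batches. Of 13 desmosome genes tested, 8 were higher in siSbsn over both batches at an unadjusted p under 0.05 and none lower, with a median of 0.376; the smallest p was that of *Dsg1b* (desmoglein-1, 0.47, SE 0.12, q = 0.254), and in batch 2 alone that of *Dsc2* (0.24, q = 0.384). Of 8 adherens junction genes 3 were higher and 1 lower, with a median of 0.292 and the smallest p in both fits at *Nectin2* (-0.40 over both batches, q = 0.254; -0.22 in batch 2, q = 0.470). Of 7 connexin genes none was higher and 1 lower, with a median of 0.060 and the smallest p in both fits at *Gjb2* (connexin 26; -0.35, q = 0.254; -0.30 in batch 2, q = 0.454). The 8 tight junction genes, with 1 higher and 2 lower, had a median of 0.098. None of these medians was corrected for the length trend. In batch 2, 7 of 13 desmosome genes were higher in siSbsn at an unadjusted p under 0.05 and none lower (10.2% of all loci). The desmosome median there was 0.176, likewise not corrected. In batch 1 the desmosome median was -0.625 for siControl against no siRNA and 0.136 for siSbsn against no siRNA. At an unadjusted p under 0.05, 6 of 14 desmosome genes were lower in siControl (16.1% of all loci at that p). In siSbsn 0 differed at that p (0.175% of all loci).

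In batch 2 against batch 1, 5 of 7 connexins were called lower and none higher, with a median of -1.55, where 37.7% of all loci were called, 2740 lower and 2112 higher. Of the desmosome genes 6 were called lower and 1 higher (median -0.50, smallest p at *Dsc2*, -1.26), and 3 adherens junction genes lower (median -0.38, smallest p at *Nectin4*, -0.98). The median of the 8 tight junction genes was -0.35 and that of all loci -0.022. *Cdh1* and *Ctnna1* share loci with other genes and were left out.

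**Figure D4:**
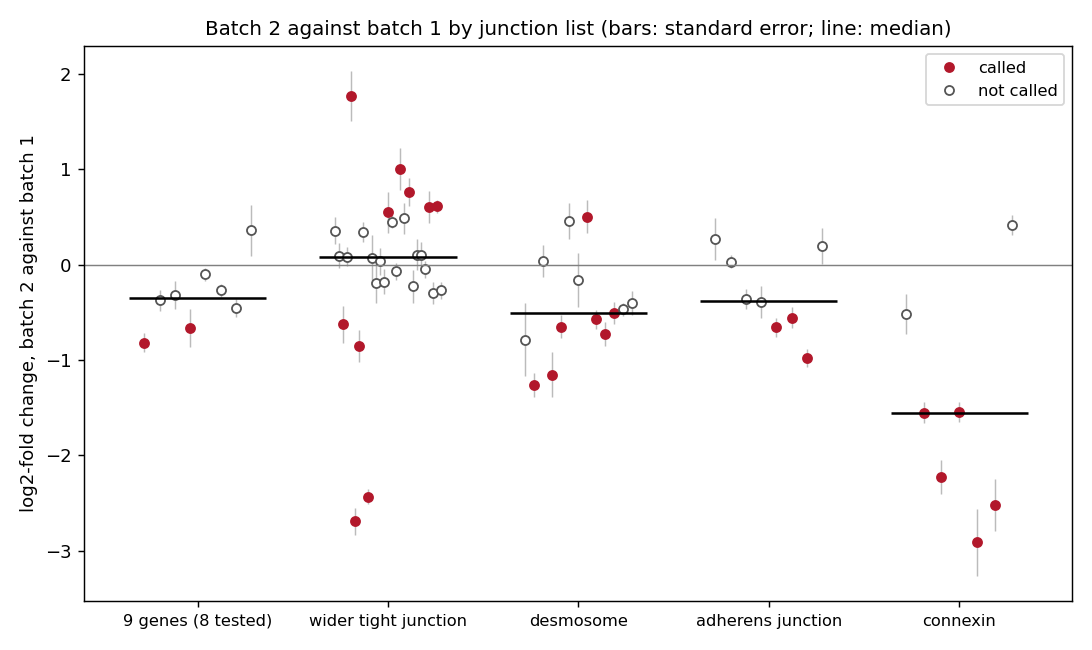
Log2-fold change of batch 2 against batch 1 (vertical axis) for single genes of 5 junction lists, in alphabetical order within each list, with bars of 1 standard error and a line at each median; filled points passed the call. The medians are -0.35 for the 8 tested genes described above, 0.082 for the wider tight junction list, -0.50 for desmosomes, -0.38 for adherens junctions and -1.55 for connexins.

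The loci whose pattern over the 12 libraries was most like each gene were found by the root mean square difference of log2 CPM after subtracting each locus' mean, over 13561 other loci. *Cldn1* lay closest to *Rap2c* (0.062) and then to *Ocln* (0.069), and *Ocln* to the same *Rap2c* (0.069) and to *Cldn1*, so that these 2 tight junction genes of different chromosomes were near neighbours in this measure. The nearest to *Cldn4* were *Hilpda* (0.096) and *Grb7* (0.105), and to *Cldn7* they were *Ier3* (0.136) and *Phlda1* (0.138). *Marveld2* was closest to *Ezr* (0.032) and *Clstn1* (0.057), and *F11r* to *Hnrnpa2b1* (0.040) and *Atp6ap2* (0.042). *Tjp1* was closest to *Usp53* (0.085) and *AK134244* (0.104), and *Cgn* to 2 loci that each join several genes (0.081 and 0.085). All of these distances share the 12 libraries, the difference between batches and the length trends given above.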

How the data were processed

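RNA-Seq was done on 12 libraries of differentiating mouse keratinocytes. The deposited values are whole-number counts that the authors made by aligning reads to mm10 with STAR, and counting the uniquely aligned ones on UCSC KnownGene genes, with overlapping genes joined into loci. The use of strand in counting is not stated in the study.

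The sample labels gave each library its group, batch and replicate number. Loci were filtered with edgeR's filterByExpr and normalized by TMM, and comparisons used edgeR 4.0.16 (R 4.3.3, quasi-likelihood), with batch in the model for both batches together. An SE was computed as the size of the log2-fold change over the square root of F. The study's methods used DESeq2, which was run as an alternative (version 1.42.0, Wald test), as was limma-voom (limma 3.58.1). CPM is the count over the effective size of the loci kept over 12 libraries, and 0.5 was added to it before taking log2 values. Transcript lengths are of the longest coding transcript in GENCODE M21, found for 95.5% of the loci tested, and the length trend was removed by lowess offsets (span 0.3). Locus starts are printed after adding 1. The scripts were tested on simulated data.

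The 9 genes and all lists were chosen with earlier results of these data known. The genes named are these 9, *Sbsn*, of the wider tight junction list every called gene, the 3 with the smallest p in 3 comparisons and the 3 with the highest CPM per kilobase, the gene with the smallest p of each other list, and the 2 loci most like each gene. Genes that this rule names but that are withheld are not reported here. Alternatives were the other tools, size factors, no filter, length offsets, leaving out each library, a replicate block, other sets of libraries and no batch term. The precision of each value is limited by 2 or 3 libraries per group.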

Additional observations from a re-analysis of the deposited data

Results flagged for a closer look

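In 2 of the 16 sets of 5 libraries checked, which were the siControl and the siSbsn libraries of both batches for each of the 8 tested genes, 1 library lay far from the others. For *Cldn1* in siControl it was siControl batch 1 replicate 2, at 1390 CPM where the other 4 had 894 to 950 CPM, and the gap took 0.863 of the whole range on the log2 scale. For *Ocln* in siControl it was the same library, at 93.4 CPM where the other 4 had 62.7 to 70.2 CPM, with a gap of 0.717 of the range. The limit for 5 libraries is 0.71, and chance passes it in about 1 in 20 sets. These sets mix the batches, and in both genes the other siControl library of batch 1 lay with batch 2.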

How the results depend on the processing

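Of 483 log2-fold changes of single genes under an alternative, 458 kept their direction and their side of the threshold. Of 192 counts of genes under an alternative, 158 stayed within 1.5 times the main count. Between siSbsn and siControl, DESeq2 called 1 gene (*Cldn7*) over both batches (0.731% of all loci) and 1 in batch 1 (1.21%). Leaving the low-count filter out also gave 1 in batch 1 (2.62%). Without that filter 1 gene was called between siControl and no siRNA (4.3% of all loci), and 3 were at an unadjusted p under 0.05 (18.4%). At that p DESeq2 gave 2 (18.7% of all loci), limma-voom 2 (15%) and a fit of only the 2 groups 0 (12%). With the length trend removed, the counts at that p were 1 in batch 1 (11.4% of all loci) and 5 in batch 2 (14.2%). They were 0 for the interaction (16.0%) and 0 for siControl against no siRNA (9.5%). Among siControl libraries alone, 1 gene was called between batches (14.0% of all loci) and 3 were at that p (42.8%).

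With the replicate numbers of batch 1 as a replicate block, 5 genes were at an unadjusted p under 0.05 over both batches (31.9% of all loci). In batch 1, 3 were called (*Cldn4*, *Cldn7* and *Tjp1*), where 14.0% of all loci were called. For siControl against no siRNA 3 were at that p (34.2% of all loci). The labels give only shared numbers, 2 per group. Deviations of same-numbered libraries correlated at 0.457 (siControl and siSbsn), 0.379 (siControl and no siRNA) and 0.805 (siSbsn and no siRNA), a hint from the data and not from the design.

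With 1 library left out, calls ranged from 0 to 3 in batch 1, 1 to 3 between batches, 0 to 3 for the interaction and 0 to 1 for siControl against no siRNA. Counts at the unadjusted p ranged from 1 to 3 over both batches, 0 to 4 in batch 1, 2 to 5 in batch 2, 0 to 6 for the interaction, 0 to 4 for siControl against no siRNA and 0 to 1 for siSbsn against no siRNA. The highest counts in batch 1, in the interaction and in siControl against no siRNA came without siControl batch 1 replicate 2. The lone control left is then assumed to vary like the others. In each of these comparisons that fit also had the largest shares of all loci called and at the unadjusted p. Its counts therefore do not set the junction genes apart. In batch 2 the highest count came without siControl replicate 2, where 22.8% of all loci were at that p, the largest share there.

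Signs turned only for values near 0. *F11r* with the length trend removed was at 0.055 over both batches, 0.071 in batch 1, 0.026 in batch 2 and 0.0015 between batches, and ranged with 1 library left out from -0.055 to 0.014 over both batches and from -0.037 to 0.026 in batch 2. *Cgn* with the length trend removed was at -0.059 over both batches and -0.015 in batch 1, and ranged from -0.017 to 0.133 over both batches with 1 library left out. *Marveld2* in batch 1 ranged from -0.0071 to 0.222. The cause of these changes was not tested. With 2 libraries per group in batch 1, small changes there are beyond what these libraries can show, and *Cldn8* is limited by its counts.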
